A study of Homo sapiens with 10 samples.

Results

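The 53 genes described here stood at least 4 times higher in every library of human thyroid organoid cells from days 38 and 45 than in any library up to day 31. Counts were put on the CPM scale, in which each count is divided by the total of its library and multiplied by 1000000. The highest early level of a gene ran from 0.232 CPM for *LINC01886* to 225 CPM for *TG*. The genes were selected on these CPM values. A gene was taken if its lowest CPM among the 4 libraries of days 38 and 45 was at least 5 and at least 4 times its highest CPM among the 6 libraries of days 16, 23 and 31. Of 28265 genes in the files, 53 met both criteria (0.188%), and 21 met the mirrored criteria, in which the early libraries stand above the late ones. The gap between early and late libraries is therefore given by the choice of the genes, and it is described without a test.

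The libraries came from organoids of ESIBIe003-A-6, a human embryonic stem cell line that carries GFP in one allele of *NKX2-1* and doxycycline-inducible transgenes for *NKX2-1* and *PAX8*. These thyroid transcription factors were switched on for a short time early in the differentiation. GFP-positive cells were sorted and bulk RNA was sequenced, with 2 libraries per day from pooled wells, which the study's methods call biological replicates. All libraries derive from 1 engineered line, reads of the transgenes cannot be told from those of the endogenous *NKX2-1* and *PAX8*, and p-values measure the spread between the libraries of a day.

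Day 16 is labelled c-AMP, and the study's schedule places the addition of 8-br-cAMP, a cell-permeable cAMP analogue, at that day. The libraries of days 23 and 31 were also labelled c-AMP. The day 38 libraries were labelled TSH DEX, for recombinant human thyrotropin with the glucocorticoid dexamethasone, which replaced cAMP about a week earlier. The day 45 libraries were labelled TSH SB, for the addition of SB431542, an inhibitor of the TGFβ type I receptor kinases, and the study's methods keep dexamethasone in that medium. Time and medium cannot be told apart in these comparisons, because each medium after cAMP was sampled on 1 day. In bulk RNA, a change in the share of cells of a type and a change in RNA per cell cannot be told apart either. Library totals ran from 7247268 to 10333933 counts, so that 3 counts, the limit that a count of 0 allows, correspond to 0.290 to 0.414 CPM. Intervals and limits of this kind cover counting error only.

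Thyroid follicular cells make thyroglobulin, a large secreted protein whose tyrosines are iodinated and coupled into thyroid hormone at the apical membrane. The iodination uses hydrogen peroxide made by the dual oxidases. Thyrotropin acts on its receptor to drive this programme, mainly through cAMP. Glucocorticoids act through a nuclear receptor that induces a set of target genes and represses many cytokine genes, while NF-kB induces chemokines, cytokines and *PTGS2*.

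By their described functions, 4 of the 53 genes belong to thyroid hormone synthesis or its regulation, and 8 are chemokines, cytokines, a cytokine receptor or complement. Another 3 are enzymes of lipid mediators, 4 are peptide hormones or a proprotein convertase and 5 are channels, a connexin or an amino acid transporter. Of the rest, 10 are matrix, adhesion, protease, clotting or growth factor genes, 7 act in transcription or signalling, 7 are other protein-coding genes and 5 are noncoding. The grouping was made after their values had been seen. In all, 48 of the genes are protein-coding. The summed level of the 53 ran from 318 to 361 CPM on day 16, from 509 to 545 on day 23 and from 581 to 639.8 on day 31. It ran from 8467 to 9076 on day 38 and from 13184 to 13796 on day 45. *TG* alone held 54.6% of the summed late level. The median gene had a late mean of 44.6 CPM, 14 genes were above 100 CPM and 17 were under 20 CPM. Per kb of annotated exon, *TG* stood at 546 CPM per kb over the late libraries, *PPY* at 195, *CXCL8* at 127 and *SLC7A2* at 77.1.

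The ratio of the lowest late to the highest early CPM had a median of 5.63 and ran from 4.02 to 22.7. It was at least 10 for 9 genes, among them *LINC01886* (22.7), *TG* (20.4), *KCNJ15* (13.5), *FSTL4* (13.2), *PPY* (13.1), *CXCL8* (11.6), *PCSK6* (10.97) and *GJB6* (10.8), and under 5 for 18 genes. Just inside the criterion of 4 lay *CCN4* (4.02), *KCNJ16* (4.07) and *NPPB* (4.10), and just outside it *PYY* (3.95), *SLC39A14* (3.94) and *LGI3* (3.93). Just inside the criterion of 5 CPM lay *LOC646736* at a lowest late value of 5.004 CPM, *MALL* at 5.21 and *LINC01886* at 5.26, and just outside it *MMP7* at 4.07, *EBF1* at 3.73 and *FAP* at 3.48. Being switched on is relative, since 21 of the 53 genes had at least 5 counts in all 6 early libraries, while 23 had a count of 0 in at least 1 of them.

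**Figure D1:**
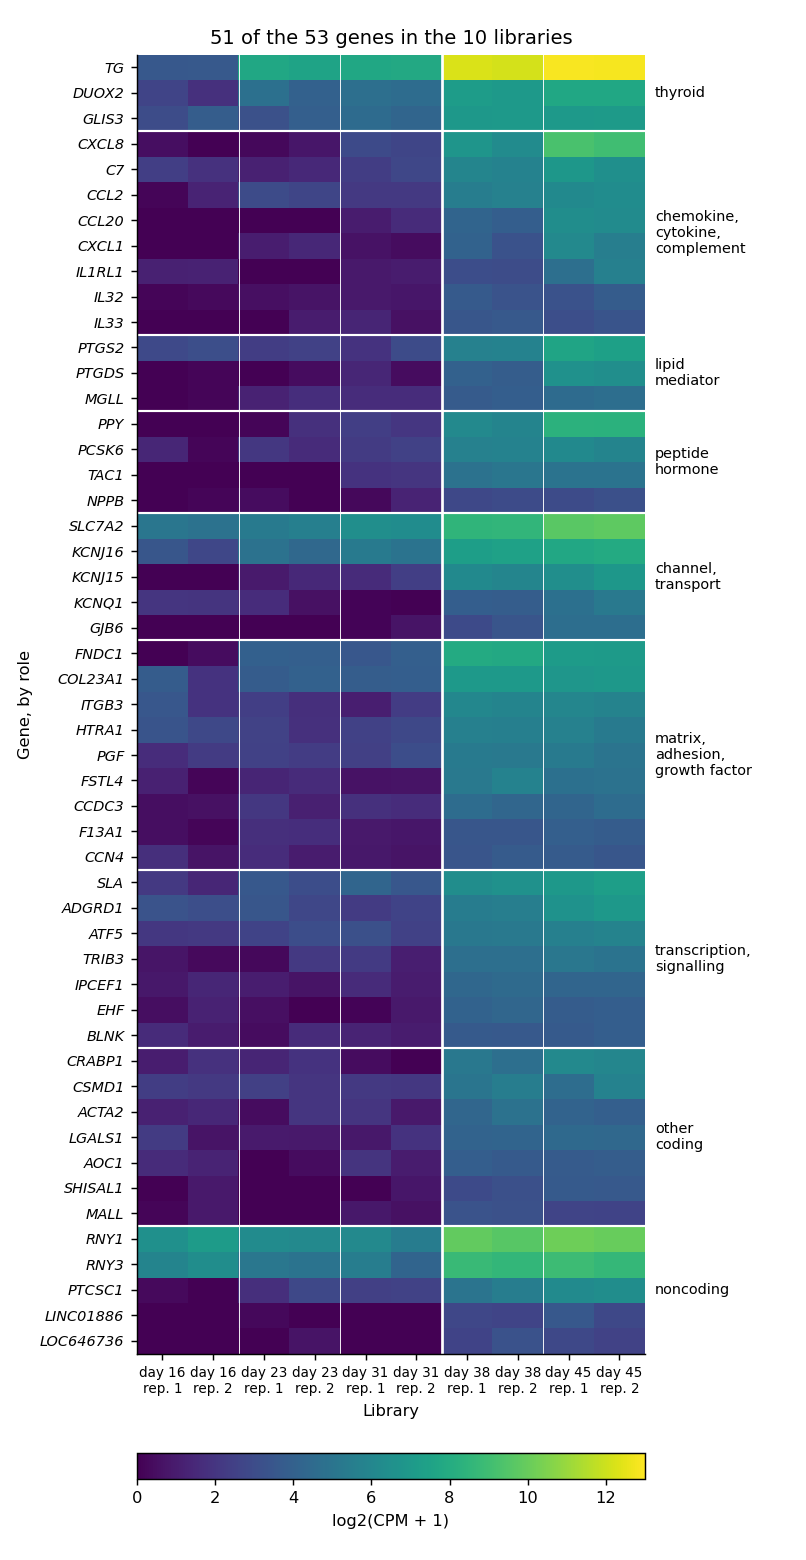
Level of 51 of the 53 genes (rows, by role) in each of the 10 libraries (columns), as log2(CPM + 1). The step at the line between days 31 and 38 is set by the choice of the genes, whereas the early columns show that *TG*, *DUOX2*, *FNDC1* and *SLC7A2* already differed between day 16 and day 31, and the last 4 columns that *CXCL8*, *CXCL1*, *CCL20*, *PTGDS* and *PPY* were higher on day 45 than on day 38.

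The criteria fix neither the order of days 16, 23 and 31 nor that of days 38 and 45, so the differences within each of these periods were tested. edgeR's quasi-likelihood test over all 10 libraries, with Benjamini-Hochberg adjustment over 21014 genes, was used throughout, and a gene was called at an adjusted p under 0.05. All 53 genes passed the filter on low counts. They passed it through the late libraries, where they were chosen to be high, and 5 of them, *GJB6*, *LINC01886*, *LOC646736*, *NPPB* and *PTGDS*, would not have passed it on the early libraries alone.

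Between day 16 and day 31, 22 of the 53 genes were called higher, where 7% of all genes tested were, and 7 were called lower, where 5.87% of all genes tested were (12.9% in either direction). Of the 5 genes that passed the filter through the late libraries alone, *PTGDS* was called, and among the other 48 the counts were 21 higher and 7 lower. Markers of other cell types, given with the marker lists, rose over the same days. The median log2 fold change of the 53 genes was 0.90, against -0.01 over all genes tested. It stayed at 0.90 when 7 genes with no count on day 16 and more than 3 on day 31 were set against the day 16 limit of 3 counts. Among the 7 genes that fell were *KCNQ1* and *CRABP1*, with 1 and 3 counts over both day 31 libraries, *ITGB3* (-1.44 ± 0.46 on the log2 scale, SE), *RNY3* (-1.24 ± 0.23), *RNY1* (-1.14 ± 0.18) and *ADGRD1* (-0.95 ± 0.31). Within the cAMP weeks, 15 genes were called higher and 6 lower from day 16 to day 23 (background 5.6% and 5.33%), and 7 higher and 2 lower from day 23 to day 31 (background 1.58% and 0.666%, 2.25% in either direction). The count of 9 genes called from day 23 to day 31 fell to 5 without day 23 replicate 1 or without day 31 replicate 2.

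Between day 38 and day 45, 14 of the 53 genes were called higher, where 4.85% of all genes tested were, and 1, *FNDC1*, was called lower, where 6.35% were. The median log2 fold change of the 53 genes was 0.24, against -0.02 over all genes tested. For 32 of the genes the libraries of day 45 lay above those of day 38 without overlap (27.7% of all genes tested), for 9 they lay below (26.8%), and for 12 the days overlapped. The largest differences among the called genes were those of *PTGDS* (2.56 ± 0.35), *CXCL8* (2.54 ± 0.18), *PPY* (2.33 ± 0.23), *IL1RL1* (2.32 ± 0.46) and *CCL20* (2.30 ± 0.33). Of the 53 genes, 9 were called higher in both periods, *CCL20*, *CXCL1*, *CXCL8*, *DUOX2*, *PPY*, *PTCSC1*, *PTGDS*, *SLC7A2* and *TG*, or 8 of the 48 without *PTGDS*, where 0.98% of all genes tested were. A further 21 were called in neither, where 79.5% of all genes tested were. *ADGRD1* and *CRABP1* were called lower from day 16 to day 31 and higher from day 38 to day 45 (background 0.471%), and *FNDC1* the other way round (background 0.89%).

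Leaving out 1 library at a time left between 10 and 18 of the 53 genes called between days 38 and 45, and between 21 and 29 between days 16 and 31. The calls over all genes moved too, from 2353 to between 1166 and 2815 and from 2705 to between 1661 and 2792. Without at least 1 of the libraries, 6 of the 15 calls between days 38 and 45 were lost (*C7*, *CRABP1*, *DUOX2*, *FNDC1*, *IL1RL1* and *PTCSC1*), as were 12 of the 29 between days 16 and 31. Fitted on only the 4 libraries of the days compared, 23 of the genes were called between days 38 and 45 (3120 of all genes) and 14 of the 46 that passed the filter there between days 16 and 31 (1929 of all genes). With DESeq2 in place of edgeR, the call of *PPY* was lost between days 38 and 45, and those of *CXCL1*, *ITGB3*, *PTGDS* and *TRIB3* between days 16 and 31. The libraries that decide a call are named with each of these genes where its value is given. For *ITGB3* the day 31 call was lost without day 16 replicate 1, day 31 replicate 1 or day 45 replicate 2 (edgeR adjusted p from 0.0506 to 0.889), its log2 fold change being -0.21 without the first of these and -0.77 without the second, and for *ADGRD1* it was lost without either day 16 library, either day 31 library, day 38 replicate 2 or day 45 replicate 2 (edgeR adjusted p from 0.0505 to 0.305).

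The thyroid genes of the set include *TG* (thyroglobulin), *DUOX2* (dual oxidase 2) and *GLIS3*, a zinc finger transcription factor required for thyroid hormone production. *TG*, on the plus strand of chr8:132866958-133134903 (GRCh38), was listed at 11.1 and 11.6 CPM on day 16, 216 and 187 on day 23 and 214 and 225 on day 31. The level was 4969.6 and 4590.1 on day 38 and 7569 and 7183 on day 45. The early step was in place by day 23, and the libraries of days 23 and 31 overlapped (edgeR log2 fold change 0.10 ± 0.10, adjusted p = 0.807). *TG* rose from day 16 to day 23 (edgeR log2 fold change 4.10 ± 0.13, adjusted p = 2.71e-22). It rose again from day 38 to day 45 by 0.57 ± 0.10 in log2 units (edgeR adjusted p = 0.000121), with both day 45 libraries above both of day 38.

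*DUOX2*, at chr15:45092650-45114172 on the minus strand, stood at 5.30 and 2.44 CPM on day 16, 26.7 and 15.1 on day 23 and 25.5 and 23.3 on day 31. Day 38 had 146 and 129 CPM and day 45 had 216 and 214. Like *TG* it rose by day 23 (edgeR log2 fold change 2.41 ± 0.27, adjusted p = 6.42e-08) and again from day 38 to day 45 (0.59 ± 0.20, edgeR adjusted p = 0.0478). The second of these calls lay close to the threshold and was lost without either day 31 library, either day 38 library or either day 45 library (edgeR adjusted p from 0.0716 to 0.405).

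*GLIS3*, at chr9:3824127-4348392 on the minus strand, was listed at 7.02 and 13.4 CPM on day 16, 8.25 and 14.4 on day 23 and 22.7 and 17.9 on day 31. It reached 121 and 125 on day 38 and 127 and 134 on day 45. It rose from day 16 to day 31 (edgeR log2 fold change 0.90 ± 0.26, adjusted p = 0.0154), a call that was lost without day 16 replicate 1 or day 31 replicate 1 (edgeR adjusted p from 0.214 to 0.280). Without the former its log2 fold change was 0.50. The other 4 thyroid transcription factors listed, *NKX2-1*, *PAX8*, *FOXE1* and *HHEX*, were not called between days 31 and 38 (edgeR adjusted p = 0.735, 0.923, 0.0565 and 0.117). From day 38 to day 45, *NKX2-1*, *FOXE1* and *HHEX* fell (edgeR log2 fold changes -1.20 ± 0.15, -0.82 ± 0.14 and -0.86 ± 0.14, adjusted p = 6.30e-07, 4.01e-05 and 3.70e-05), the week in which *TG* rose.

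The other genes of thyroid hormone synthesis give the setting of these genes. Of the 19 such genes outside the set that were tested, 7 were called higher and 1, the protease gene *CTSL*, lower from day 31 to day 38, where 8.8% and 6.23% of all genes tested were. From day 38 to day 45, 3 of the 19 were called higher and 3 lower (background 4.85% and 6.35%). The 7 were *SLC5A5*, the sodium iodide symporter, *SLC26A7*, an anion transporter, and *DUOXA1*, the maturation factor of *DUOX1*. They also held *DIO2*, a deiodinase, *TSHR*, the thyrotropin receptor, *LRP2* (megalin) and *CTSB*, a protease that processes thyroglobulin. *SLC26A7* missed the criterion of 4 times with early values of 18.4 to 30.2 CPM and late values of 86.9 to 158. *SLC5A5* missed both criteria, with 0 to 3.05 early and 4.16 to 16.5 late. *DUOXA2*, the maturation factor of *DUOX2*, was listed at 0.855 to 5.33 CPM early and at 5.24 to 12.7 late and was not called (edgeR adjusted p = 0.0616). *IYD*, which recovers iodide, fell from day 38 to day 45 (edgeR log2 fold change -1.33 ± 0.15, adjusted p = 5.93e-08).

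Of the 250 bases before the start site of *DUOX2*, which RefSeq places at chr15:45114173-45114422 (GRCh38.p14, minus strand), the capitals mark a C/EBP match (TTNNGCAA) starting at position -59 and a TATA box match (TATAAA), read on the opposite strand, at position -127, counted from the start site. It is printed because *DUOX2* was a thyroid gene of the set called higher in both periods.
DUOX2: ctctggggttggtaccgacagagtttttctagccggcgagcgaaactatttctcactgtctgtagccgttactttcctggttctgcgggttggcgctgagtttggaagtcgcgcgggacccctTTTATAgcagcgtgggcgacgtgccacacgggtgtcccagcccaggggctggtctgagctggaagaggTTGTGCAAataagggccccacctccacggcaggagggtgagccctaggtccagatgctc

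Of the 53 genes, 4 lie in or next to *TG*, itself included, on chromosome 8. *SLA*, which encodes a Src-like adapter protein, lies inside *TG* on the opposite strand (chr8:133036728-133102912), and *PTCSC1*, a long noncoding RNA, lies inside *TG* on the same strand (chr8:133054959-133057767). *CCN4*, a matricellular growth factor gene, begins 56.1 kb past the end of *TG* (chr8:133191039-133231690). Neither *SLA* nor *PTCSC1* shares exon bases with *TG*. The strand setting of the read counting is not given in the sources used here, so reads from unspliced *TG* RNA cannot be told from reads of these genes.

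*SLA* was listed at 3.44 and 1.59 CPM on day 16, 10.8 and 7.33 on day 23 and 17.9 and 10.7 on day 31. Late values were 80.7 and 93.6 on day 38 and 122 and 158 on day 45. *PTCSC1* was listed at 0.265 and 0, 2.32 and 6.01, 4.49 and 4.84, 31.3 and 44.5 and 72.7 and 82.0 CPM on these days. Like *TG*, both were lowest on day 16 and highest on day 45. As a percentage of the *TG* level, *SLA* was at 30.95% and 13.7% on day 16, at 3.92% to 8.35% on days 23 and 31 and at 1.61% to 2.19% in the 4 late libraries. The share of *SLA* was thus higher in every early library than in any late one. *PTCSC1* was at 2.38% and 0% on day 16, from 2 counts and 0, at 1.07% to 3.21% on days 23 and 31 and at 0.629% to 1.14% late, so that its early and late shares overlapped. *SLA* rose from day 16 to day 31 (edgeR log2 fold change 2.45 ± 0.32, adjusted p = 6.12e-07). *PTCSC1* rose from day 38 to day 45 (0.98 ± 0.31, edgeR adjusted p = 0.03), a call lost without either day 38 library or either day 45 library (edgeR adjusted p from 0.0887 to 0.341).

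*CCN4* was listed at 0.611 to 2.38 CPM early and 9.58 to 12.4 late, and was called neither between days 16 and 31 nor between days 38 and 45. *NDRG1*, a stress-responsive gene past *CCN4*, rose from day 31 to day 38 by 1.66 in log2 units (edgeR adjusted p = 5.82e-09) with 90.3 and 65.8 CPM on day 31 and 226 and 196 on day 38, without meeting the criterion of 4 times. *ST3GAL1*, a sialyltransferase gene farther on, rose by 1.39 in log2 units over the same interval (edgeR adjusted p = 7.44e-05), from 19.8 and 24.2 to 44.9 and 54.4 CPM. *MIR7848*, a microRNA gene inside *TG* and *SLA*, had no count on day 31 and 5.81 and 8.88 CPM on day 38 (edgeR adjusted p = 0.000134), and missed the criterion of 4 times with 3.97 CPM in day 23 replicate 2. *PHF20L1*, 18.2 kb before *TG*, was listed at 108 to 146 CPM early and 105 to 129 late (edgeR adjusted p = 0.252 from day 31 to day 38). These neighbours were chosen for their position.

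The immune genes of the set were the chemokines *CXCL8*, *CXCL1*, *CCL2* and *CCL20*, the cytokines *IL32* and *IL33*, the IL-33 receptor gene *IL1RL1* and *C7*, a component of the terminal complement complex. *CXCL8*, which draws neutrophils, was listed at 0.397 and 0 CPM on day 16, 0.232 and 0.721 on day 23 and 6.69 and 5.58 on day 31. The level was 108 and 77.6 on day 38 and 606 and 518 on day 45. It rose from day 23 to day 31 (edgeR log2 fold change 3.63 ± 0.43, adjusted p = 9.69e-07) and from day 38 to day 45 (2.54 ± 0.18, edgeR adjusted p = 2.81e-12). The order of the levels was the order of the days from day 23 on, without overlap.

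*CCL20*, a ligand of CCR6 on lymphocytes and dendritic cells, had no count on days 16 and 23. It was listed at 0.987 and 1.98 CPM on day 31, 16.9 and 13.9 on day 38 and 82.7 and 76.0 on day 45. The mean of day 31 was 7.79-fold higher than the 3 counts over both day 16 libraries that a count of 0 allows. Ratios to this limit leave out the counting error of day 31. *CXCL1* was listed at 0 and 0 CPM on day 16, 1.05 and 1.68 on day 23 and 0.548 and 0.372 on day 31. Day 38 had 16.2 and 8.77 CPM and day 45 had 67.3 and 45.8. From day 38 to day 45 *CCL20* rose by 2.30 ± 0.33 and *CXCL1* by 2.11 ± 0.39 in log2 units (edgeR adjusted p = 4.52e-06 and 0.00018). The day 31 call of *CXCL1* against day 16 rested on 8 counts and was lost without either day 16 library or either day 31 library (edgeR adjusted p from 0.0687 to 0.174).

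*CCL2*, which draws monocytes, was already at 6.74 and 5.65 CPM on day 23 and at 3.51 and 3.47 on day 31. It reached 43.9 and 52.2 on day 38 and 71.2 and 77.9 on day 45. It was not called between the late days (edgeR adjusted p = 0.231). Its call from day 16 to day 31 was lost without day 16 replicate 1 (edgeR adjusted p = 0.130). *IL1RL1* was listed at 1.32 and 1.34 CPM on day 16, at 0 on day 23 and at 0.877 and 0.992 on day 31. Late values were 7.55 and 7.02 on day 38 and 26.1 and 49.4 on day 45. It rose from day 38 to day 45 (edgeR log2 fold change 2.32 ± 0.46, adjusted p = 0.000515), a call lost without day 45 replicate 2 (edgeR adjusted p = 0.116). Its ligand gene *IL33* stood at 7.59 to 11.2 CPM late and *IL32* at 8.69 to 12.8, and neither was called between days 38 and 45 (edgeR adjusted p = 0.832 and 1.00). The day 31 call of *IL33* against day 16 was lost without either day 16 library or day 31 replicate 1 (edgeR adjusted p from 0.0856 to 0.181).

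*C7* was lowest on day 23 in the early period. It was listed at 4.24 and 2.57 CPM on day 16, 1.28 and 1.80 on day 23 and 4.17 and 5.83 on day 31. The level was 58.5 and 53.1 on day 38 and 115 and 87.8 on day 45. It rose by 0.81 ± 0.25 on the log2 scale over the last week (edgeR adjusted p = 0.0268). That call was lost without either day 38 library or day 45 replicate 1 (edgeR adjusted p from 0.124 to 0.328). Of the 23 complement genes outside the set that were tested, 2 were called higher and 1 lower from day 31 to day 38, close to the background of 8.8% and 6.23%, and 5 higher and 2 lower from day 38 to day 45 (background 4.85% and 6.35%).

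Of the 10 epithelial chemokine genes outside the set that were tested, 3 were called higher and 1 lower from day 31 to day 38 (background 8.8% and 6.23%). *CXCL2*, *CXCL3* and *CXCL14* rose, and *CXCL12* fell (edgeR log2 fold change -1.54 ± 0.20, adjusted p = 2.76e-07). *CXCL2* was listed at 97.7 and 68.8 CPM on day 31, 247 and 248 on day 38 and 777 and 797 on day 45, with early values too high for the criterion of 4 times. Of 34 NF-kB regulators and cytokine targets tested, 16 were called higher and 0 lower from day 38 to day 45 (background 4.85% and 6.35%), with a median of 1.37 on the log2 scale against -0.02 over all genes tested. From day 31 to day 38, 7 of the 31 outside the set were called higher and 1 lower. Among the 16, *TNFAIP3* and *NFKBIA*, inhibitors of the pathway, went from 53.8 and 55.6 to 286 and 289 CPM and from 148 and 133 to 407 and 411 CPM. *NFKB1* went from 29.5 and 38.5 to 162 and 194, and *PTGS2* was the one that belongs to the 53. *IL32* and *IL33*, on the same list, were not called in that week.

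The 250 bases before the start sites of 4 of these inducible genes are shown for the motifs they hold, from the first RefSeq window listed for each (GRCh38.p14). They lie at chr4:73740319-73740568 for *CXCL8*, chr4:73869143-73869392 for *CXCL1* and chr2:227813592-227813841 for *CCL20*, all on the plus strand, and at chr1:186680424-186680673 for *PTGS2* on the minus strand. Capitals mark matches to the NF-kB consensus, to AP-1 (TGANTCA), to C/EBP (TTNNGCAA) and to the TATA box (TATAAA), on either strand. *CXCL8* held an AP-1 match at position -137 and a TATA box at -31, and *CXCL1* an NF-kB match at -79. *CCL20* held an NF-kB match at -79 and a TATA box at -29, and *PTGS2* a C/EBP match at -133 and a TATA box at -32, counted from the start site. Only full matches are marked. The *CXCL8* bases also hold ggaatttcc, which lies within the *CXCL1* match, without meeting the full consensus. The lack of an NF-kB mark in *CXCL8* and *PTGS2* therefore does not show that they lack such a site.
CXCL8: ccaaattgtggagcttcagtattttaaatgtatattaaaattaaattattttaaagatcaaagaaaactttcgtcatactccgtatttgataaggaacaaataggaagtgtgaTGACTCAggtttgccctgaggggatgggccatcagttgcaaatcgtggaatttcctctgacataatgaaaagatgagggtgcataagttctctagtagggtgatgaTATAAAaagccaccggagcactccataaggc
CXCL1: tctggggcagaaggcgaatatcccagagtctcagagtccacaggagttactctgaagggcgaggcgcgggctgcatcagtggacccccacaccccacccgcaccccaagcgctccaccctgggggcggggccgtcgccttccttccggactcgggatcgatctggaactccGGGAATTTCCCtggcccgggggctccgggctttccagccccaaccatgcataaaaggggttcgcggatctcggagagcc
CCL20: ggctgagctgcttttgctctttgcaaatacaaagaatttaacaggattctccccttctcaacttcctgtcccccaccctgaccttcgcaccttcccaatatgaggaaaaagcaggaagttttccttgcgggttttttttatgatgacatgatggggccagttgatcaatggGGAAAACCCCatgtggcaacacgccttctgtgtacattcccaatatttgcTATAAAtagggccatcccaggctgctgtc
PTGS2: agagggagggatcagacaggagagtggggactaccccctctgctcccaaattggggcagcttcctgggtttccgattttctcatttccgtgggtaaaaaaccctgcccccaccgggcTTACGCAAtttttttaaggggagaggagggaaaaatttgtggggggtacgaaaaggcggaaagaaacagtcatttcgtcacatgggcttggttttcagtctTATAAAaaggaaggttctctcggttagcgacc

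RefSeq promoter windows of 250 bases before to 50 bases after a start site were found for 34 of the 53 genes (52 windows, some of which overlap within a gene, of 35116 in all). The NF-kB consensus was matched in 21.2% of the windows of the set and in 11.3% of all windows, in *ATF5*, *CCDC3*, *CCL20*, *CRABP1*, *CXCL1*, *F13A1*, *FNDC1*, *IL32*, *MALL*, *PCSK6* and *PPY*. Windows of 1 gene share bases and are not independent, so these shares are a description and no excess is read from them. Even with windows taken as independent, the 95% interval of the NF-kB share, 11.1% to 34.7%, includes the share of all windows. The full palindromic glucocorticoid response element was matched in 0 windows of the set and in 0.00285% of all windows. The single site AGAACA, which the full element contains, was matched in 7.69% and 14.8%. The cAMP response element TGACGTCA was matched in 3.85% and 1.85%, and TGACG, which it contains, in 25.0% and 24.6%. The shares were 15.4% and 10.5% for C/EBP, 9.62% and 7.66% for STAT (TTCNNNGAA), and 13.5% and 7.71% for AP-1. They were 17.3% and 18% for forkhead (TGTTTNC), 19.2% and 11.5% for the NKX2-1 core (CAAGTG), and 19.2% and 11.5% for the TATA box. Both strands were searched. A match is a string of letters and not a bound site, and windows this close to the start leave distant elements out.

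Genes of lipid mediators were *PTGS2*, the inducible cyclooxygenase, *PTGDS*, which makes prostaglandin D2, and *MGLL*, which frees arachidonic acid from monoacylglycerol. *PTGS2* was listed at 2.74 to 7.57 CPM over the early libraries, at 52.0 and 54.2 on day 38 and at 191 and 168 on day 45. *PTGDS* was at 0 to 1.64 CPM early, at 15.5 and 13.5 on day 38 and at 94.7 and 83.5 on day 45. Both enzymes of prostaglandin synthesis rose over the last week without overlap of the days, by 1.70 ± 0.23 and 2.56 ± 0.35 in log2 units (edgeR adjusted p = 1.57e-06 and 1.82e-06). *PTGS2* was not called between days 16 and 31 (edgeR adjusted p = 0.208), and the call of *PTGDS* over those days was lost without day 16 replicate 1 or day 31 replicate 1 (edgeR adjusted p from 0.125 to 0.424). *MGLL* was at 0 and 0.122 CPM on day 16 and 2.19 and 2.11 on day 31. Day 38 had 12.4 and 13.8 CPM and day 45 had 22.1 and 24.6. It was called higher on day 31 than on day 16 (edgeR adjusted p = 0.000381) but not between the late days (edgeR adjusted p = 0.346).

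Of the peptide hormone genes, *PPY*, which encodes pancreatic polypeptide, had the highest level per kb of the protein-coding genes after *TG*. It had no count on day 16 and was listed at 0.116 and 2.52 CPM on day 23 and 4.38 and 3.22 on day 31. It reached 67.4 and 57.6 on day 38 and 332 and 319.6 on day 45. The mean of day 31 was 19.96 times the day 16 limit, and *PPY* rose from day 38 to day 45 by 2.33 ± 0.23 in log2 units (edgeR adjusted p = 6.05e-09). Under DESeq2 this difference was not called (adjusted p = 0.135), while its log2 fold change lay between 2.18 and 2.48 in all alternatives run. *PYY*, of the same peptide family, lay just outside the criterion, with a lowest late value of 53.8 CPM and a highest early value of 13.6. *TAC1*, the substance P precursor, had no count on days 16 and 23, and was listed at 2.74 and 2.98 CPM on day 31, 28.5 and 33.9 on day 38 and 29.5 and 29.8 on day 45. Its mean on day 31 was 15.0 times the day 16 limit, and the late days overlapped (edgeR adjusted p = 0.903). *NPPB*, the precursor of brain natriuretic peptide, stood at 0 to 1.49 CPM early and 6.10 to 7.92 late. *PCSK6*, a proprotein convertase, was at 1.59 and 0.122 CPM on day 16, 3.73 and 4.71 on day 31 and 51.7 to 70.8 late, and its day 31 call against day 16 was lost without day 16 replicate 2 (edgeR adjusted p = 0.0714).

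The somatostatin gene *SST*, which is not in the set, went the other way at the change of medium, from 1054 and 1197 CPM on day 31 to 18.5 and 13.6 on day 38 (edgeR log2 fold change -5.90 ± 0.22, adjusted p = 1.37e-20). *SST* is 1 of 22 genes on the list of cAMP targets, of which 21 were tested. Of these 21, 5 were called higher and 4 lower from day 31 to day 38 (background 8.8% and 6.23%). From day 38 to day 45, 10 were called higher and 4 lower (background 4.85% and 6.35%). The list holds 0 of the 53 genes.

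*SLC7A2*, a transporter of cationic amino acids on the plus strand at chr8:17497088-17570573, rose step by step. It was listed at 33.0 and 28.5 CPM on day 16, 38.3 and 47.5 on day 23 and 85.9 and 79.1 on day 31. Late values were 362 and 376 on day 38 and 828 and 871 on day 45, with each day above the one before without overlap. It was called higher in each of the 3 intervals tested, days 16 to 23 (edgeR adjusted p = 0.041), days 23 to 31 (adjusted p = 4.03e-05) and days 38 to 45 (adjusted p = 3.27e-08), the last by 1.15 ± 0.13 on the log2 scale. The call from day 16 to day 23 was lost without day 16 replicate 2, day 23 replicate 2, day 31 replicate 1, either day 38 library or day 45 replicate 2 (edgeR adjusted p from 0.0511 to 0.426).

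Potassium channel genes followed different early courses. *KCNJ16*, of the inward rectifier family, was listed at 10.1 and 5.86 CPM on day 16 and 38.3 and 30.1 on day 31. The level was 156 and 172 on day 38 and 220.1 and 247 on day 45. *KCNJ15*, of the same family, had no count on day 16 and was listed at 2.08 and 4.34 CPM on day 31, 71.7 and 58.8 on day 38 and 84.9 and 116 on day 45. Both were called higher on day 31 than on day 16 (edgeR adjusted p = 1.17e-08 and 1.68e-06), *KCNJ15* with a day 31 mean of 16.8 times the day 16 limit. *KCNQ1*, a voltage-gated channel, was listed at 3.05 and 2.93 CPM on day 16, 2.09 and 0.481 on day 23 and 0.110 and 0 on day 31. Day 38 had 13.6 and 13.3 CPM and day 45 had 27.0 and 36.7. It fell from day 16 to day 31 (edgeR adjusted p = 3.93e-05), from 47 counts to 1. The ratio of day 16 to day 31 was 51.3, with an exact 95% counting interval from 8.77 to 2070.0. *KCNQ1* shares 121 exon bases with *KCNQ1OT1*, an abundant antisense RNA, so its counts are uncertain without strand. *GJB6*, the connexin 30 gene, was at 0 to 0.620 CPM early, 6.68 and 9.76 on day 38 and 24.6 and 24.8 on day 45. It was not called between the late days (edgeR adjusted p = 0.0701). *KCNJ16*, *KCNJ15* and *KCNQ1* did not pass the test over the last week (edgeR adjusted p = 0.0972, 0.184 and 0.0935).

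*SLC7A2* and *PTGDS* are also on a list of glucocorticoid response genes. Of the 29 others tested, 12 were called higher and 2 lower from day 31 to day 38 (background 8.8% and 6.23%), the interval in which dexamethasone was added, and 6 higher and 4 lower from day 38 to day 45 (background 4.85% and 6.35%). *FKBP5* and *TSC22D3*, widely used as targets of the glucocorticoid receptor, went from 36.5 and 42.4 to 127 and 147 CPM and from 71.5 and 55.3 to 125 and 113 CPM (edgeR log2 fold changes 2.02 ± 0.23 and 1.13 ± 0.17, adjusted p = 3.98e-08 and 4.90e-06). *PDK4* and *ALOX15B* fell. *FKBP5* was not called from day 38 to day 45 (edgeR adjusted p = 0.581).

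Of the 10 matrix, adhesion, protease, clotting and growth factor genes, 0 were called higher and 1 lower from day 38 to day 45, near the background of 4.85% and 6.35%, with a median log2 fold change of -0.14. The 8 immune genes had 5 called higher and a median of 1.46, and the difference between these groups was not tested. *FNDC1*, a fibronectin type III domain protein, was listed at 0 and 0.366 CPM on day 16, 15.1 and 14.3 on day 23 and 10.5 and 14.4 on day 31. It reached 243 and 228 on day 38 and 141 and 135 on day 45. It had risen by day 23 (edgeR adjusted p = 1.34e-12) and fell over the last week (edgeR log2 fold change -0.82 ± 0.18, adjusted p = 0.00127), the latter call lost without day 38 replicate 1 (edgeR adjusted p = 0.0595). *COL23A1*, a transmembrane collagen, was at 2.81 to 15.6 CPM early and 113 to 126 late. *ITGB3*, the integrin β3 subunit, was at 10.5 and 2.69 CPM on day 16, 1.10 and 3.97 on day 31 and 56.2 to 63.5 late.

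*HTRA1*, a secreted protease, stood at 2.52 to 9.54 CPM early and 39.8 to 50.9 late, and *PGF*, placental growth factor, at 2.12 to 7.44 and 31.5 to 39.9. *FSTL4*, a follistatin-like gene, stood at 0.122 to 2.04 and 26.9 to 52.95 CPM. *CCDC3*, which encodes a secreted protein, and *F13A1*, a subunit of clotting factor XIII, stood at 0.397 to 3.37 and 0.122 to 2.32 CPM early and at 17.9 to 23.3 and 10.3 to 14.4 late. Of these 5, 0 were called from day 38 to day 45 (background 11.2% in either direction), and *CCDC3* was called higher on day 31 than on day 16, a call lost without either day 16 library or day 31 replicate 1 (edgeR adjusted p from 0.067 to 0.102). *CCDC3* shares 147 exon bases with *OPTN* on the opposite strand, which stood at 60.2 CPM over the late libraries, so its counts are uncertain without strand.

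Among the genes of transcription and signalling besides *SLA*, *ADGRD1*, an adhesion G protein-coupled receptor, was listed at 8.87 and 7.57 CPM on day 16 and 3.73 and 5.21 on day 31. Late values were 43.3 and 45.8 on day 38 and 97.0 and 123 on day 45. It rose over the last week (edgeR log2 fold change 1.25 ± 0.25, adjusted p = 0.000463), and the days did not overlap. *ATF5*, a stress-responsive transcription factor, and *TRIB3*, a pseudokinase induced by amino acid and endoplasmic reticulum stress, stood at 3.31 to 7.89 and 0.232 to 3.62 CPM early and at 36.0 to 54.8 and 25.5 to 34.5 late. *TRIB3* was called higher on day 31 than on day 16, a call lost without either day 16 library, day 31 replicate 1 or either day 45 library (edgeR adjusted p from 0.0595 to 0.577). *EHF*, an epithelial ETS factor, *IPCEF1*, which interacts with cytohesins, and *BLNK*, a B cell linker protein, were at 12.8 to 18.4, 18.1 to 21.7 and 11.5 to 13.7 CPM late, against 0 to 1.34, 0.601 to 2.08 and 0.348 to 2.04 early. These 3 were called in neither period, like 79.5% of all genes tested. *ATF5* shares 565 exon bases with *NUP62* and *BLNK* 364 with *ZNF518A*, both on the opposite strand and at 32.5 and 238 CPM over the late libraries, so the counts of both genes are uncertain without strand.

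Of the other protein-coding genes, *CRABP1*, a retinoic acid binding protein, was listed at 1.06 and 2.57 CPM on day 16, 1.51 and 2.76 on day 23 and 0.329 and 0 on day 31. The level was 36.0 and 25.9 on day 38 and 68.4 and 60.6 on day 45. It had 29 counts on day 16 and 3 on day 31, a ratio of 10.6 with an exact 95% counting interval from 3.27 to 54.2. The call of this fall (edgeR adjusted p = 0.00179) was lost without day 16 replicate 2 or day 31 replicate 2 (edgeR adjusted p from 0.0577 to 0.0832). Its rise over the last week (1.00 ± 0.34, edgeR adjusted p = 0.0477) was lost without either day 38 library or either day 45 library (edgeR adjusted p from 0.102 to 0.465). *CSMD1*, a large membrane protein with complement control domains, stood at 3.01 to 4.53 CPM early and 23.9 to 52.4 late, with a wide spread between the day 45 libraries (23.9 and 52.4). *ACTA2*, smooth muscle actin, was at 0.348 to 3.01 CPM early and 14.2 to 29.3 late, *LGALS1*, galectin 1, at 0.611 to 3.84 and 16.6 to 20.7, and *AOC1*, diamine oxidase, at 0 to 2.85 and 11.7 to 14.03. *SHISAL1* and *MALL*, membrane protein genes, stood at 0 to 0.855 and 0 to 0.855 CPM early and at 6.48 to 11.9 and 5.21 to 8.999 late. Of these 6 genes, 0 passed the test from day 38 to day 45 or from day 16 to day 31 (background 11.2% and 12.9% in either direction).

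The highest levels per kb of the set were those of 2 Y RNAs, *RNY1* at 8453 and *RNY3* at 4191 CPM per kb over the late libraries. Y RNAs are short noncoding RNAs that bind the Ro60 protein, and the genes of both lie next to each other on chromosome 7. The reference sequence of *RNY1*, from the GENCODE 44 annotation of GRCh38, lies at chr7:148987136-148987248 on the minus strand (113 bases), and *RNY3* lies at chr7:148983755-148983856 on the plus strand. It is shown because Y RNAs differ from the other genes in length and kind, and it ends in a run of T, as the transcripts of RNA polymerase III do.
RNY1: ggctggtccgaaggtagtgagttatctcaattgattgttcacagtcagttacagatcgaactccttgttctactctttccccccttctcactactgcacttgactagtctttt

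*RNY1* was listed at 90.3 and 139 CPM on day 16, 75.7 and 68.2 on day 23 and 67.3 and 42.5 on day 31. Day 38 had 930.1 and 789 CPM and day 45 had 1106 and 996. *RNY3* was at 56.6 and 82.0, 34.1 and 29.9, 44.3 and 17.4, 446 and 385 and 482 and 397 CPM on these days. Both fell from day 16 to day 31 (edgeR log2 fold changes -1.14 ± 0.18 and -1.24 ± 0.23, adjusted p = 9.56e-06 and 0.000153), and neither was called from day 38 to day 45. Over the alternatives run, the sizes of these falls lay between -1.51 and -0.75 for *RNY1* and between -2.07 and -0.72 for *RNY3*. Both calls were kept. The gene of their protein, *RO60*, was listed at 264 to 339.6 CPM early and 243 to 297 late.

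Other short RNAs were also higher in the late libraries, and these were chosen after their values were seen. *RNY4* was at 3.84 to 13.3 CPM early and 50.8 to 70.2 late. The spliceosomal *RNU4-2* was at 1003 to 3464 CPM early and 6785 to 10213 late, and *RNU5B-1* at 32.0 to 86.6 and 165 to 284. Of 52 *SNORA* genes with a mean of at least 5 CPM, 26 had every late library above every early one. This count has no share over all genes beside it, so no excess is read from it. Others did not share this course, with *SCARNA2* at 419 to 506 CPM early and 156 to 260.4 late, and *RMRP* at 3823 to 6937 and 4624 to 6671. The *SNORD* genes summed to 1605 to 3087 CPM early and 2165 to 2577 late. Together, short noncoding RNAs took 6.25% to 12.6% of the counts in the early libraries and 10.6% to 15.4% in the late ones, with *RN7SK* the most abundant. Within the early period their share was 11.2% and 12.6% on day 16 and 6.25% and 7.04% on day 31, when *RNY1* and *RNY3* fell too. How far the recovery of short RNAs in low-input libraries took part in the levels of *RNY1* and *RNY3* was not tested. With short noncoding RNAs left out of the totals, a choice made after seeing the data, the other 51 genes still met both criteria. The remaining noncoding genes, *LINC01886* and *LOC646736*, were listed at 5.26 to 11.04 and 5.004 to 8.66 CPM late, with counts in 1 early library each.

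The libraries held markers of thyroid follicular cells throughout. All 7 genes of the list (among them *TG*, *PAX8*, *NKX2-1*, *FOXE1*, *TSHR* and *HHEX*) were detected, and the 5 that are not in the set summed to 1909.9 and 1417 CPM on day 16 and 1510.2 and 1434 on day 31. It reached 1334 and 1355 on day 38 and 1014 and 1018 on day 45. In CPM, all 4 late libraries lay below all 6 early ones in this sum. CPM leaves out the TMM scaling factors that the tests use. These were 1.071 and 1.066 on day 31 and 0.896 and 0.942 on day 38, so the order of these 2 days in the sum depends on the scaling. From day 31 to day 38, 1 of these 5 genes was called higher and 0 lower (background 8.8% and 6.23%). On day 45 both libraries lay below both of day 38.

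The cells had been sorted on GFP from *NKX2-1*, a gate that cells without this factor do not pass, yet markers of other cell types were present and differed between the same libraries. From day 16 to day 31, when 22 of the 53 genes were called higher, 8 of 9 hepatocyte-type markers were called higher (background 7%), and their sum went from 8.21 and 13.7 to 308 and 261 CPM with *SERPINA1* the most abundant. Distal lung markers had 3 of 6 called higher and went from 66.0 and 35.1 to 681 and 678 CPM, with *SFTPB* the most abundant and *SFTPC* at 0 on both days. Goblet cell markers had 2 of 7 called higher and went from 12.3 and 11.5 to 174 and 152 CPM, mostly through *AGR2* (from 8.74 and 4.64 to 167 and 144). Mesodermal and fibroblast markers outside the set had 6 of 11 called higher and 2 lower (background 5.87%). Neural markers had 3 of 10 called higher and went from 90.9 and 73.3 to 166 and 184 CPM. Markers of C cells and neuroendocrine cells had 2 of 8 called higher and went from 27.3 and 18.6 to 44.3 and 50.7 CPM. Intestinal markers had 2 of 6 called higher, while cardiac and muscle markers had 2 of 10 higher and 2 lower. The part of any of these cells in the early rise of the 22 genes was not tested. The list of mesodermal and fibroblast cells, 12 genes with *COL3A1* the most abundant, summed to 1037 and 1208 CPM on day 16, 1948 and 1957 on day 23 and 2065 and 2411 on day 31. Late values were 4117 and 4514 on day 38 and 4579.5 and 3729 on day 45. From day 31 to day 38, 5 of its 11 genes outside the set were called higher and 2 lower (background 8.8% and 6.23%). *ACTA2*, on this list, is in the set. *COL1A1* and *COL1A2* went from 349 and 339 to 940.3 and 1051 CPM and from 165 and 224 to 1031 and 1095 CPM, whereas *LUM* and *POSTN* fell (log2 fold changes -1.23 ± 0.18 and -0.83 ± 0.14). The list of cardiac and muscle cells, 10 genes with *MYH6* the most abundant, summed to 31.5 to 69.3 CPM early and 183 to 234 late, with 6 called higher and 0 lower from day 31 to day 38. All genes of both lists had counts in at least 1 library. Genes of the set that are known from such cells, *ACTA2*, *ITGB3*, *NPPB*, *FNDC1* and *CCN4*, thus had their late levels in libraries where these markers were also higher, and the part of such cells in their levels was not tested. Other lists went differently from day 31 to day 38. Hepatocyte-type markers had 1 of 9 called higher and 4 lower. Distal lung markers had 0 of 6 higher and 2 lower, and their sum went from 681 and 678 to 122 and 128 CPM. Endothelial markers had 0 of 6 higher and 2 lower, and blood and immune markers 0 of 5 and 2. Goblet cell markers had 3 of 7 higher and 1 lower, and those of C cells and neuroendocrine cells 2 of 8 and 0.

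Between days 38 and 45, when 5 of the 8 immune genes of the set rose, the list of blood and immune cells summed to 14.4 and 8.22 and to 53.8 and 56.4 CPM, with *CD68* the most abundant gene and *CD3E*, *MS4A1*, *HBB* and *HBG1* at 0 in every library. Of its 5 genes tested, 3 were called higher (background 4.85%), *CD68* (from 10.3 and 4.49 to 34.6 and 34.3 CPM), *CSF1R* (from 0.194 and 0.548 to 5.38 and 7.30) and *CD14* (from 0 and 0 to 3.04 and 3.75), genes known from macrophages and monocytes, whereas *PTPRC*, the pan-leukocyte gene, stood at 0.484 and 0.548 CPM on day 38 and 0.552 and 0 on day 45. The list of hepatocyte-type cells, with *SERPINA1* the most abundant, went from 300.3 and 167 to 546 and 491 CPM with 3 of 9 called higher, among them *ALB* and *AFP*. The mesodermal list had 3 of 12 called higher, *DCN*, *LUM* and *PDGFRA*, and its sum overlapped between the days. Goblet cell markers, with *AGR2* the most abundant, summed to 86.0 and 66.2 CPM on day 38 and to 178 and 141 on day 45, with 2 of 7 called higher and 1 lower (background 6.35%). Intestinal markers, led by *CDH17*, went from 59.6 and 45.7 to 86.7 and 138 CPM with 2 of 6 called higher. Airway basal markers, led by *KRT5* and with *DAPL1* at 0 throughout, went from 29.6 and 27.7 to 55.5 and 43.8 CPM with 1 of 6 called higher. The part of any of these cells in the rise of *CXCL8*, *CXCL1*, *CCL20*, *IL1RL1* and *C7* was not tested. Endothelial markers summed to 16.7 to 47.7 CPM and neural markers to 68.6 to 142 CPM in the late libraries, against 20.5 to 58.5 and 73.3 to 184 early. The list of C cells and neuroendocrine cells summed to 18.6 to 50.7 CPM early, 92.0 and 86.7 on day 38 and 71.9 and 66.2 on day 45, with *CALCB* the most abundant.

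**Figure D2:**
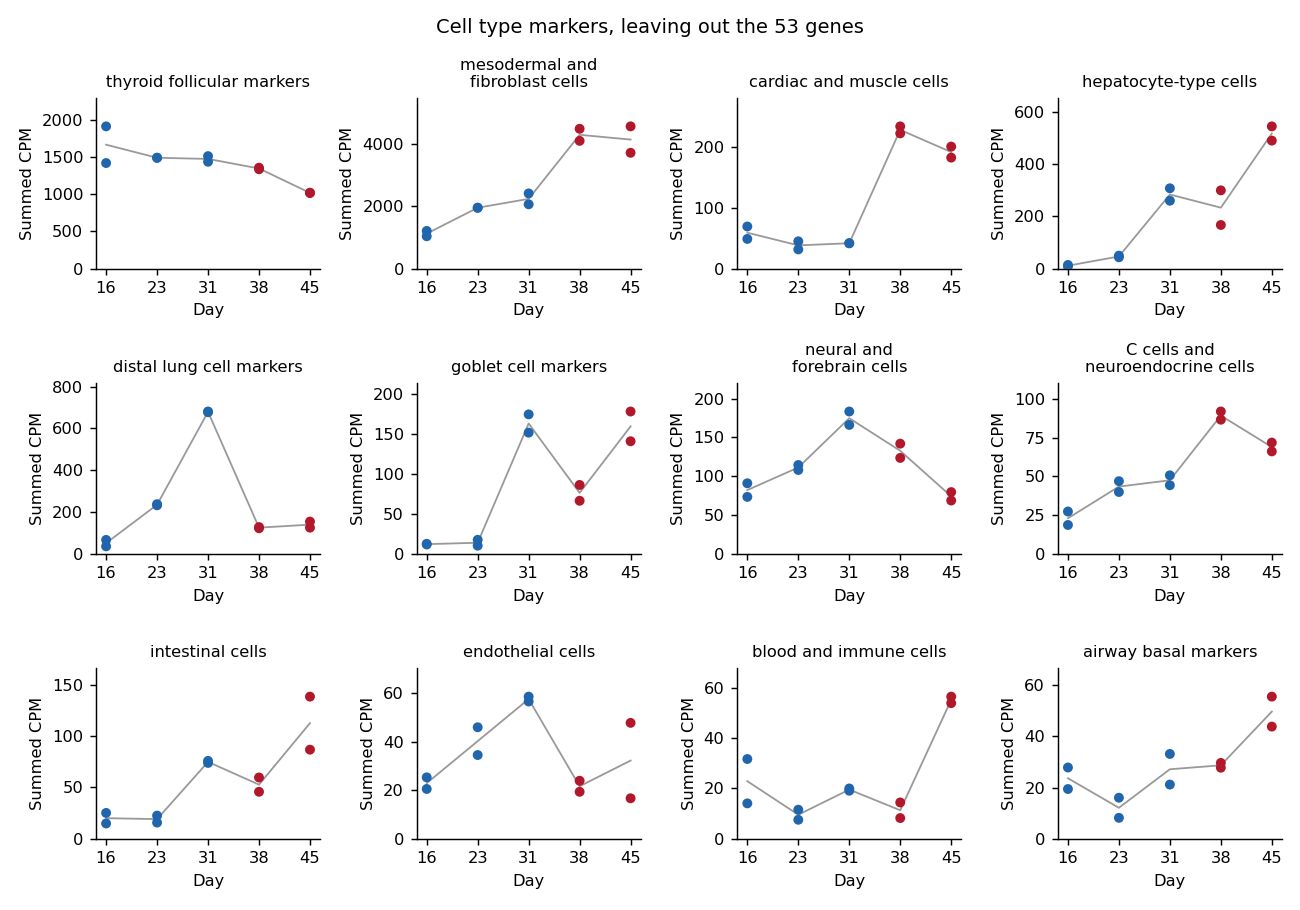
Summed CPM of 12 lists of cell type markers by day, each point a library and the line the mean of the day, blue for days 16 to 31 and red for days 38 and 45, with the 53 genes left out and each vertical axis starting at 0. Sums of mesodermal and of cardiac markers are higher on days 38 and 45 than before, those of the thyroid markers outside the set are not, and those of distal lung markers peak on day 31.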

How the data were processed

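The study's 10 libraries analysed here, 2 for each of days 16, 23, 31, 38 and 45, were bulk RNA-seq of sorted cells. The authors used Trimmomatic for trimming, HISAT2 for alignment to GRCh38 and HTSeq with an Ensembl annotation for counting, and the deposited values are raw counts per gene. Versions of these 3 tools and the strand setting are not given in the sources used here. Late libraries kept on cAMP were not analysed here.

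CPM was computed from the deposited counts. Differences were tested with edgeR 4.0.16 (quasi-likelihood, TMM factors, all 10 libraries, the day as factor, a minimum of 5 counts in 2 or more libraries), with 5 residual degrees of freedom, and fold changes are on the log2 scale with SE. Members and lists were chosen with earlier results of these data known. Genes named were those on a list, the highest by level or ratio, the largest called differences and those next to a threshold, and the others so that the set is accounted for, except that 2 of the 53 genes, included in all counts, are not reported here. Positions came from GENCODE 44, which held 52 of the 53 genes (not *LOC646736*), and promoters from RefSeq (GRCh38.p14). No promoter window was matched for *ADGRD1*, *CCL2*, *CCN4*, *CSMD1*, *ITGB3*, *KCNQ1*, *LGALS1*, *LINC01886*, *MGLL*, *NPPB*, *PTCSC1*, *RNY1*, *RNY3*, *SHISAL1*, *SLA*, *SLC7A2* and *TG*, among others. No outcome of a check of the test on simulated data is given here, and no result rests on one. Alternatives were DESeq2 1.42.0, other scalings and filters, other criteria, a replicate block and leaving out each library.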

Additional observations from a re-analysis of the deposited data

How the results depend on the processing

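Of 44 calls of single genes among the 53 that were followed through the alternatives, 22 held in every refit that gave them a value, 22 were lost in at least 1 and 0 were reversed. Requiring an absolute log2 fold change of at least 1 also removed the call of *TG* between days 38 and 45. Fits on only the 4 libraries compared have fewer residual degrees of freedom and apply the filter on low counts to those libraries. They called 23 of the genes between days 38 and 45 in place of 15. They called 14 (of 46 tested) between days 16 and 31 in place of 29, and 8 (of 39) between days 16 and 23 in place of 21. Between days 23 and 31 they called 1 (of 44) in place of 9. Over all genes these fits called 3120, 1929, 1731 and 358, in place of 2353, 2705, 2296 and 473. Leaving out 1 library gave from 10 to 18, from 21 to 29, from 16 to 23 and from 5 to 11 in these comparisons, and moved the median log2 fold change of the 53 genes between days 38 and 45 from 0.24 to values between 0.21 and 0.33. Over all genes, leaving out 1 library gave from 1350 to 2383 calls between days 16 and 23 and from 206 to 646 between days 23 and 31. Replicate numbers did not pair the libraries (correlations of replicate differences between -0.03 and 0.02). With the replicate block 18, 30, 25 and 11 of the 53 genes were called, and 2691, 3057, 2703 and 678 over all genes. The criterion of 2 times gave 196 genes and that of 8 times 18. With CPM scaled by the TMM factors, 68 genes met both criteria, all 53 among them. With short noncoding RNAs left out of the totals, 58 genes met them, 51 of the 53 among these. *PYY*, *SLC39A14* and *LGI3*, just outside the criterion of 4 times, then entered, and *RNY1* and *RNY3* left.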
